A study of Mus musculus with 12 samples.

Results

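The tissue kallikreins are secreted serine proteases whose genes lie side by side in a single cluster. They are made as inactive precursors, are switched on by other proteases or by one another, and are held in check by inhibitors of the SPINK and serpin families. In stratified epithelium they cleave the desmosome proteins that hold surface cells together, and several are made in mammary epithelium and change in breast tumours. Described here are 7 of them, Klk6, Klk7, Klk8, Klk10, Klk11, Klk13 and Klk14, with every probe that the platform annotation assigns to them. They had 12 named probes among the 45281 on the array, and 5 of the 7 genes were among the 10365 genes that could be tested.

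The cells were mouse immortalized tumor-initiating cells from a study of breast cancer, profiled on the Mouse WG-6 v2.0 BeadChip of Illumina. In hypoxic stem cell conditions, with 3 arrays, they grew at 3% oxygen in a serum-free mammary stem cell medium containing 2% Cultrex, a basement membrane extract. In normoxic standard conditions they had been moved to a DMEM-based medium at 21% oxygen, with 1 array on each of days 1 to 6 and 3 arrays on day 7. Oxygen, medium and the matrix supplement changed together, so their parts in any difference cannot be told apart. All groups came from the same immortalized cell source, and the labels do not say that replicates were separate cultures. The adjusted p-values therefore measure only the spread between these arrays, which may be technical.

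The members were selected on their signals in these same arrays, which earlier results had shown to be high on days 1 to 3. Their levels are therefore a description, no p-value is given for them, and counts of their calls stand only beside the share over all genes, whereas the genes of the surrounding protease network carry adjusted p-values. Signals are background-corrected, quantile-normalized log2 values. A reading was called detected where its detection p-value, which ranks a probe against the negative control beads, lay below 0.05. A probe was kept if detected on at least 3 of 12 arrays. Those of Spink6, Tmprss4, Serpinb2, Klk5, Klk9, Siglece, Esr1, Col1a1, Pdgfrb and Col3a1 were undetected on all hypoxic arrays and kept only through normoxic ones. The same held for Lor, and for L1cam and F2, which are only counted below. The probe of Serpina5 was kept only through the hypoxic arrays, and so was that of Hpn, also only counted. For these genes a difference from hypoxic cells was built into the choice. Neither their adjusted p-values nor the counts of their lists allow for it. Differences are on the log2 scale with the standard error (SE) of a limma linear model. "Past the threshold" means an adjusted p below 0.05, Benjamini-Hochberg over all 10365 genes, and "rose" and "fell" are used of network genes in that sense only. The model takes its spread from the hypoxic and day 7 triplicates, so the SEs for days 1 to 3 and days 4 to 6 hold no difference between the days.

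Between 34.3% and 37.7% of probes were detected per array. Of 10 epithelial markers 9 were tested, and all 9 were detected on every hypoxic, early and day 7 array. Of 9 fibroblast markers 6 were tested, and 5 of them rose by day 7 and 1 fell (25.9% of all genes were called higher and 33.7% lower). Of the macrophage, lymphocyte and endothelial markers 2, 1 and 1 were tested, and 0 of these was detected on all hypoxic arrays. The order of unnamed detection columns placed the arrays in 2 sets of 6 (1 hypoxic array, days 4 to 6 and 2 arrays of day 7 against the others). These sets were inferred and are stated by no label. Days 1 to 3 all lay in one set and days 4 to 6 in the other, so a change between day 3 and day 4 and a difference between sets cannot be told apart. In extracts of a whole culture, fewer cells making a transcript and less of it per cell cannot be told apart.

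The 100 bases before each annotated start of the 5 measurable genes are shown because these genes moved together. They come from RefSeq (GRCm38.p6, chromosome 7, plus strand), and capitals mark the letters GTTAAAA.
Klk14, chr7:43690318-43690417: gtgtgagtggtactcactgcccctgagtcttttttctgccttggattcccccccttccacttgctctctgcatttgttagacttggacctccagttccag
Klk10, chr7:43780954-43781053: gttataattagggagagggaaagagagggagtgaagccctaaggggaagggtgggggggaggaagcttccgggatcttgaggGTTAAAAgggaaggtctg
Klk8, chr7:43797477-43797576: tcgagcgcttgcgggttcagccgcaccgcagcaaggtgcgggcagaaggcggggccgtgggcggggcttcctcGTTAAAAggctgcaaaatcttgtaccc
Klk7, chr7:43811194-43811293: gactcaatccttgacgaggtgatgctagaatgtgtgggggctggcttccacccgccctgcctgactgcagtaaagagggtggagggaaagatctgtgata
Klk6, first start, chr7:43824444-43824543: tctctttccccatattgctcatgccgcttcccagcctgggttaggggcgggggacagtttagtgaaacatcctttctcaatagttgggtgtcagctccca
Klk6, second start, chr7:43825350-43825449: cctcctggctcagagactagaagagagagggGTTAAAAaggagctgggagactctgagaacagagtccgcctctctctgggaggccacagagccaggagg

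GTTAAAA was chosen after these sequences had been read, and was then searched on both strands of all 32851 RefSeq mouse promoters, each running from 250 bases before to 50 after a start. It was held by 3.41% of all promoters and by 3 of the 9 promoters of the 7 kallikreins, those of Klk6 (second start), Klk8 and Klk10. It began 69, 27 and 18 bases before the start, on the sense strand in each. The other motifs looked for, none overlapping it, were the TATA box (TATAAA), the AP-1 site (TGANTCA), the hypoxia response core (ACGTG) and the grainyhead site (AACCNGTT). They were held by 13.6%, 7.81%, 19.6% and 2.09% of all promoters. Of the 9 kallikrein promoters, 2 held the hypoxia response core, in Klk10 and Klk11, and 0 held any of the other 3 motifs. These are matches of letters in a window and nothing more.

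All 5 measurable kallikreins were highest on day 1 of normoxic culture and lowest, by group mean, in hypoxic cells, and their signals came down again through day 7. Klk6, a trypsin-like protease also called neurosin, spanned the widest range. Its normalized signal was 5.64, 5.90 and 5.71 on the hypoxic arrays. It was 14.36 on day 1, then 13.62, 11.56, 10.73, 10.05 and 9.75 on days 2 to 6, and 8.25, 8.21 and 8.28 on the day 7 arrays. No normoxic array overlapped the hypoxic ones, and each of the 6 steps from day to day went down. Day 1 lay 8.61 above the hypoxic mean on the log2 scale (390-fold), and day 7 lay 2.50 ± 0.12 above it (SE, n = 3 and 3, 5.65-fold).

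A second Klk6 probe followed the first closely, with a median difference of 0.28 between them over the 12 arrays and a largest one of 0.71. The hypoxic readings of Klk6, though detected, lay near the lower end of the scale, and there the background correction sets much of the fold. Without it the day 7 difference of Klk6 was 1.45 with quantile and 1.24 with median scaling, and that for days 1 to 3 was 6.03 and 5.95 in place of 7.43 ± 0.12.

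Klk7, the chymotrypsin-like enzyme of the horny layer of skin, overlapped its hypoxic readings again on day 7. Its signal was 5.80, 6.34 and 5.54 on the hypoxic arrays, 13.26 on day 1, and 11.57, 9.92, 9.39, 8.72 and 7.28 on days 2 to 6. On day 7 it read 6.05, 6.93 and 6.25, so 1 of 3 arrays lay above all hypoxic ones and the groups overlapped. The day 1 difference was 7.36 (165-fold) and that of day 7 was 0.52 ± 0.29. Within the inferred sets the day 7 difference was 1.06 in one and -0.02 in the other.

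Klk14, a trypsin-like protease that can cut protease-activated receptors, was not detected on any hypoxic array, where its signal was 5.18, 5.16 and 4.98. It reached 11.51 on day 1 and read 10.39, 8.29, 7.69, 7.70 and 7.17 on days 2 to 6 and 5.85, 5.88 and 5.73 on day 7. All 9 normoxic readings were detected and lay above the hypoxic ones, those of day 7 by little. Because the hypoxic level is only a limit, its folds are lower bounds, taken against the lowest signal of a detected probe on each hypoxic array or the probe's own signal where higher. Klk14 was at least 70.6-fold higher on day 1 and at least 1.37-fold higher on day 7. Its probe was kept only through the normoxic arrays, so a difference from the hypoxic ones was built into the choice. The day 7 difference of 0.71 ± 0.12 shrank to 0.24 without background correction at a common median.

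Klk8, also called neuropsin and known for its roles in skin and in synaptic remodelling, had the smallest day 1 difference of the 5. Its hypoxic readings were 10.05, 10.18 and 9.90, against 14.72 on day 1, 13.79, 12.96 and 12.99 on days 2 to 4, a value 0.01 above the last on day 5, 12.43 on day 6, and 11.91, 11.98 and 11.91 on day 7. The course held a shelf: days 3, 4 and 5 differed by 0.03 and 0.01 from one to the next, less than the SD of 0.14 between hypoxic arrays. On day 1 the deposited Klk8 signal lay only 0.20 below the brightest probe of that array, so the day 1 difference of 4.67 (25.5-fold) was read near the top of the range. On day 7 the difference was 1.89 ± 0.12 (3.7-fold).

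Klk10, first described as a gene whose expression is lost in human breast cancer cell lines, read 7.55, 8.30 and 8.43 in hypoxic cells and 14.36 on day 1. It then read 12.87, 12.13, 11.75, 11.47 and 10.83 on days 2 to 6 and 10.20, 10.31 and 10.55 on day 7. The hypoxic arrays differed more for Klk10 (SD 0.47) than for the other 4, yet all normoxic arrays stayed above them. Day 1 lay 6.27 above the hypoxic mean (77-fold) and day 7 lay 2.26 ± 0.24 above it (4.79-fold).

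**Figure D1:**
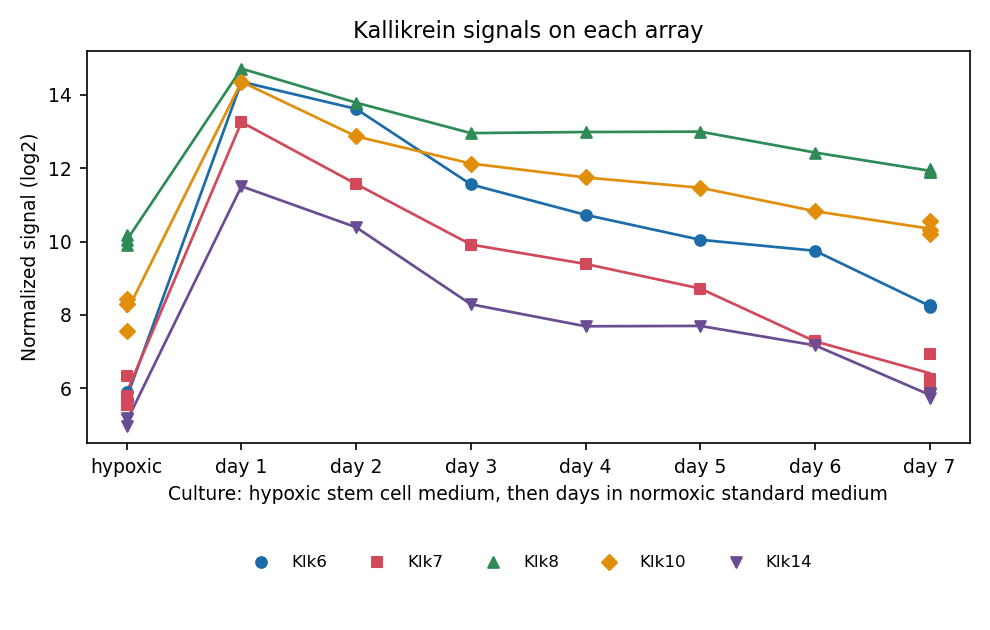
Normalized log2 signal (vertical axis) of Klk6, Klk7, Klk8, Klk10 and Klk14 on each of the 12 arrays, ordered by culture from hypoxic to day 7; points are arrays and lines join group means. Every line peaks on day 1, and on day 7 only the Klk7 readings overlap the hypoxic ones.

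Klk11 and Klk13, proteases of skin and other epithelia, could not be followed. Their 6 probes gave 72 readings, of which 2 were detected, 1 for each gene and both on day 1. The detected reading of Klk13 was 5.91 and that of Klk11 was 5.38. No level or fold is given for the other days, when both were not distinguishable from the control beads.

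The members came down at different speeds. Over the 9 normoxic arrays the fitted slope was -1.07 ± 0.07 log2 units per day for Klk7, -0.98 ± 0.06 for Klk6 and -0.86 ± 0.08 for Klk14. It was shallower for Klk10 (-0.58 ± 0.05) and Klk8 (-0.39 ± 0.05). These slopes are straight lines through the single arrays of days 1 to 6 and the 3 arrays of day 7, and their SEs include any curvature. On day 1 the deposited signals of Klk8, Klk6 and Klk10 lay 0.20, 0.63 and 0.63 below the brightest probe of that array. Their slopes and day 1 differences thus rest on readings near the top of the range. On the log2 scale, 40.4% of the day 1 excess of Klk8 and 36.1% of that of Klk10 was still present on day 7, against 29% for Klk6 and 7.07% for Klk7. The shares of Klk8, Klk10 and Klk6 rest on day 1 readings near the top of the range. That of Klk7 rests on a day 7 difference that ran from -0.02 to 1.06 between the inferred sets. For Klk6 and Klk7 the hypoxic level also lay near the lower end of the scale, where the background correction sets much of the fold. No share is given for Klk14, whose hypoxic level is only a limit. The largest drop came between days 1 and 2 for Klk7, Klk8 and Klk10, and between days 2 and 3 for Klk6 and Klk14, which dropped by 2.06 and dropped by 2.10 on the log2 scale.

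From day to day, Klk6, Klk7 and Klk10 went down at all 6 steps, Klk14 at 5 and Klk8 at 4. The exceptions were steps of 0.01 for Klk14 between days 4 and 5 and the shelf of Klk8, smaller than the SDs of the hypoxic arrays (0.11 and 0.14). Neighbouring days of Klk10 between days 3 and 5 also differed by less than its hypoxic SD of 0.47. Single days have no spread of their own.

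As group means, all 5 measurable members were higher and past the threshold on days 1 to 3, when 25.6% of all genes were called higher, and on days 4 to 6, also against 25.6%. On day 7 it was 4 of 5, against 25.9% of all genes. Every array lay above every hypoxic array for 5 members on days 1 to 3 (28.2% of all genes), for 5 on days 4 to 6 (28.4%) and for 4 on day 7 (28.6%). Since earlier results of these contrasts chose the members, nothing is read from these counts. On days 1 to 3 the differences were 7.43 ± 0.12 for Klk6, 5.69 ± 0.29 for Klk7, 5.03 ± 0.24 for Klk10, 4.96 ± 0.12 for Klk14 (at least 25.9-fold) and 3.78 ± 0.12 for Klk8. On days 4 to 6 they had come down to 4.43 ± 0.12, 2.57 ± 0.29, 3.26 ± 0.24, 2.41 ± 0.12 (at least 4.44-fold) and 2.76 ± 0.12, in the same order. Their median difference was 5.03 on days 1 to 3, 2.76 on days 4 to 6 and 1.89 on day 7, where the medians over all genes were -0.06, -0.05 and -0.11.

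Day 1 weighed on the early mean but did not make it. With day 1 left out, the days 1 to 3 differences were 6.84 for Klk6, 4.86 for Klk7, 4.41 for Klk10, 4.23 for Klk14 and 3.33 for Klk8. Within the inferred set that holds days 1 to 3 they were 7.41, 5.51, 5.19, 4.89 and 3.70, and within the set that holds days 4 to 6 the later differences were 4.47, 2.92, 2.93, 2.54 and 2.91, each in that order of genes. The sizes on days 1 to 3 were thus close to those over all arrays. The set of days 4 to 6 leaves 1 hypoxic array, and its sizes moved more for some members. There Klk7 stood at 2.92 against 2.57 over all arrays, and Klk10 at 2.93 against 3.26.

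Over the 12 arrays the members ran in parallel. Pearson's r between pairs lay between 0.894 (Klk7 and Klk8) and 0.987 (Klk8 and Klk10), and without day 1 between 0.851 and 0.983. All points share the arrays and the same hypoxic-to-day 1 step, so these values describe the course only.

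The mouse cluster on chromosome 7 holds 26 family genes in RefSeq, of which 24 had a named probe and 8 a kept one. In order along the chromosome its first 12 are Klk14, Klk13, Klk12, Klk11, Klk10, Klk9, Klk8, Klk7, Klk6, Klk5, Klk4 and Klk15. The strongly changing genes were not one unbroken block. Klk6, Klk7 and Klk8 are neighbours, Klk9 parts them from Klk10, and Klk11, Klk12 and Klk13 lie between Klk10 and Klk14. All the genes between them were undetected on the 3 hypoxic arrays, so only bounds can be given for them. On day 1 Klk12 read 6.29 (at least 1.89-fold higher), and the single detected probes of Klk9, Klk13 and Klk11 read 5.96, 5.91 and 5.38 (at least 1.51-fold, 1.46-fold and 1.01-fold higher). Beyond Klk6, both probes of Klk5 were detected on day 1, at 6.58 and 7.27 (at least 2.32-fold and 3.73-fold higher), and those of Klk4 and Klk15 were not.

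**Figure D2:**
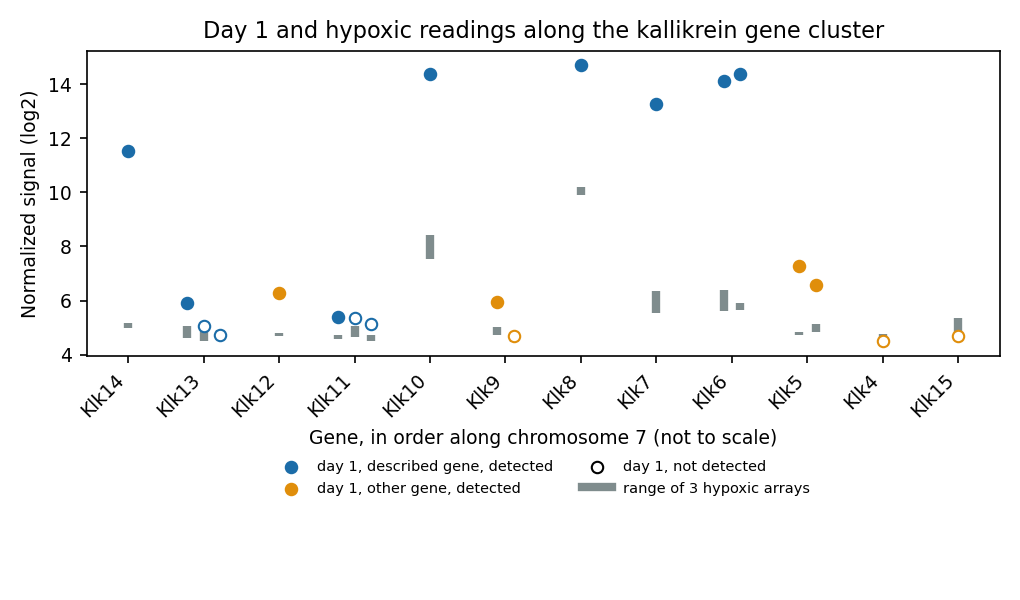
Normalized log2 signal (vertical axis) of every named probe of 12 kallikrein genes in chromosomal order, not to scale. Grey bars span the 3 hypoxic arrays and points are the single day 1 array, filled where detected and open where not, blue for the described genes and orange for other family genes. The day 1 points of Klk14, Klk10, Klk8, Klk7 and Klk6 lie at 11.51 or above, and no other one passes 7.27.

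Of the other 19 kallikreins listed, 3 had a kept probe, and of their 30 probes 16 of 360 readings were detected. Klk5, the trypsin-like protease that can start the skin cascade by activating Klk7 and Klk14, was detected on 0 hypoxic and 2 of the early arrays. It rose on days 1 to 3 by 0.70 ± 0.15 (limma adjusted p = 0.00685, at least 1.28-fold). That call rested on day 1: without it the difference was 0.27 (adjusted p = 0.23). On day 7 Klk5 differed by 0.03 ± 0.15 (limma adjusted p = 0.883). The second of the 3 that passed on days 1 to 3, Klk9, named here after its values were seen, rose by 0.57 ± 0.19 (limma adjusted p = 0.0394, at least 1.07-fold). The 22 probes of the Klk1b branch, which makes the glandular kallikreins of rodents, were detected in 6 of 264 readings. Members of that branch are near-identical, so their probes may share targets.

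Of 10 genes flanking the cluster, 3 had a kept probe. Siglece, a lectin of myeloid cells, differed by 0.70 ± 0.24 on days 1 to 3 (limma adjusted p = 0.0396), with 2 of 3 early arrays above all hypoxic ones. That call was lost in 9 of the 15 alternatives tried. Ctu1, a tRNA-modifying enzyme, differed by 0.50 ± 0.18 (limma adjusted p = 0.0507) and 2410002F23Rik by 0.51 ± 0.19 (limma adjusted p = 0.0524). On day 7 none of the 3 passed, with differences of 0.44, -0.11 and -0.12.

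The inhibitors of kallikreins changed in both directions. Of 12 listed, 7 were tested: 3 rose and 3 fell on day 7, and 3 rose and 2 fell on days 1 to 3. Over all genes 33.7% were called lower on day 7 and 29.2% on days 1 to 3, beside the shares called higher given above. Spink5 encodes LEKTI, the main inhibitor of Klk5, Klk7 and Klk14 in skin. Its signal was 8.67, 8.37 and 8.35 in hypoxic cells, 9.01, 8.79 and 9.35 on days 1 to 3, and 6.84, 7.56 and 7.31 on day 7. The early arrays lay above and the day 7 arrays below all hypoxic ones. Spink5 rose on days 1 to 3 by 0.59 ± 0.21 (limma adjusted p = 0.0441) and fell on day 7 by 1.23 on the log2 scale (SE 0.21, limma adjusted p = 0.00165). The early call was lost in 8 of the 16 alternatives tried, among them the removal of each hypoxic array, of day 1 or of day 3 (0.53 to 0.69 without a hypoxic array, 0.61 without day 1, 0.44 without day 3).

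Spink6, another kallikrein inhibitor of skin, went the other way with time. It was not detected on any hypoxic array (4.67, 4.58 and 5.18), read 6.26, 6.51 and 7.30 on days 1 to 3, and was highest on day 7 at 7.80, 8.17 and 8.06. It rose at least 2.5-fold on days 1 to 3 (limma adjusted p = 0.000195) and at least 6.24-fold on day 7 (limma adjusted p = 2.51e-05). Its second probe gave 0.35 on days 1 to 3, which did not pass (adjusted p = 0.145 over probes), in place of 1.88. On day 7 it gave 1.05 (adjusted p = 0.00205 over probes), in place of 3.20.

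Serpina3n, a serpin that inhibits chymotrypsin-like proteases, was the inhibitor that fell most, by 4.58 on days 1 to 3 (SE 0.25, limma adjusted p = 1.55e-05). Its hypoxic signals of 11.80, 11.57 and 11.56 came down to 7.19, 6.42 and 7.57 on days 1 to 3 and stood at 9.51, 8.92 and 8.48 on day 7, so its lowest readings were those of the days when the kallikreins were highest. Serpina5, the protein C inhibitor, fell at least 2.55-fold on days 1 to 3 (limma adjusted p = 5.11e-05) and was detected on 0 of those arrays. Serpinb6a rose by 1.07 ± 0.11 on day 7 (limma adjusted p = 0.000191), and Serping1, the C1 inhibitor, by 1.02 ± 0.22 (limma adjusted p = 0.00495).

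The proteases that can activate kallikreins or work beside them also parted. Of 17 listed 13 were tested, and 5 rose and 6 fell on day 7, with 5 each way on days 1 to 3. Over all genes 25.9% were called higher and 33.7% lower on day 7, and 25.6% and 29.2% on days 1 to 3. The listed proteases that rose included both plasminogen activators. Plau, urokinase, went from 7.13, 7.25 and 7.54 in hypoxic cells to 11.24, 10.80 and 10.97 on days 1 to 3 and 9.94, 9.96 and 9.95 on day 7. Its early rise was 3.70 ± 0.14 (13-fold, limma adjusted p = 6.5e-06). Plat, the tissue type activator, rose by 2.79 ± 0.13 on days 1 to 3 (limma adjusted p = 8.97e-06) and by 3.65 ± 0.13 on day 7 (limma adjusted p = 1.06e-05). Tmprss4, a membrane-bound protease not detected in hypoxic cells, rose at least 2.98-fold on days 1 to 3 (limma adjusted p = 0.000447). Its other kept probes disagreed, at 2.33 (adjusted p = 9.14e-05 over probes) and at 0.36, which did not pass (adjusted p = 0.392 over probes).

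Other membrane-anchored proteases of epithelial surfaces fell. St14 encodes matriptase, which can activate Klk5 and Klk7 precursors in skin, and Prss8 encodes prostasin, its partner. On day 7 St14 fell by 1.52 (SE 0.14, limma adjusted p = 0.000103), Prss8 by 1.79 (SE 0.16, limma adjusted p = 0.000106), and Tmprss2, which activates kallikreins in prostate, at least 4.1-fold (limma adjusted p = 4.57e-05). On days 1 to 3 Prss8 fell by 0.96 (SE 0.16, limma adjusted p = 0.00195), whereas St14 differed by -0.37 ± 0.14 (limma adjusted p = 0.0531) and did not pass. Tmprss13 fell by 1.41 on days 1 to 3 (SE 0.20, limma adjusted p = 0.000804), but its day 1 reading of 7.67 lay within the hypoxic range.

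Among the 4 tested regulators of these activators, Serpinb2, an inhibitor of plasminogen activators, peaked on day 1 as the kallikreins did. It was not detected on the hypoxic arrays (4.52, 4.56 and 4.56) and read 11.53, 10.27 and 9.44 on days 1 to 3. Serpinb2 then read 7.97, 5.93 and 7.57 on days 4 to 6 and 6.96, 6.29 and 7.23 on day 7, lowest on day 5. It rose at least 33-fold on days 1 to 3 (limma adjusted p = 7.04e-06) and at least 2.75-fold on day 7 (limma adjusted p = 0.000177). Spint1, the Kunitz inhibitor of matriptase, fell by 0.70 on days 1 to 3 (SE 0.12, limma adjusted p = 0.00213) and fell by 1.98 on day 7 (SE 0.12, limma adjusted p = 2.51e-05). Its second probe gave -0.42 on days 1 to 3, which did not pass (adjusted p = 0.112 over probes), and -0.62 on day 7 (adjusted p = 0.0299 over probes).

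Of 4 protease-activated receptors, through which kallikreins can signal, F2r (PAR1) was the one tested. It rose by 0.49 ± 0.13 on days 1 to 3 (limma adjusted p = 0.016). F2rl1 (PAR2), the receptor most often tied to kallikreins, had no kept probe and is given no level.

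The adhesion proteins that kallikreins cut did not rise in any comparison. Of 12 listed 5 were tested, with 2 lower on days 1 to 3 and 3 lower on days 4 to 6 and on day 7, against 29.2%, 29.2% and 33.7% of all genes. Cdsn, corneodesmosin, which Klk5 and Klk7 degrade in skin, read 9.56, 9.45 and 9.45 in hypoxic cells, 10.57, 8.58 and 7.51 on days 1 to 3, and 4.93, 6.07 and 5.44 on day 7. It stood above the hypoxic arrays on day 1 alone and fell by 4.01 on day 7 (SE 0.27, limma adjusted p = 3.53e-05), with its other probes at -1.99 and -2.13. Dsg2, a desmosomal cadherin, fell by 1.65 on days 1 to 3 (SE 0.13, limma adjusted p = 5.9e-05) and fell by 2.23 on day 7 (SE 0.13, limma adjusted p = 2.06e-05). Cdh1, E-cadherin, fell by 0.59 (SE 0.14, limma adjusted p = 0.0101) on days 1 to 3 and fell by 1.29 on day 7 (SE 0.14, limma adjusted p = 0.000237). Its second probe gave -0.68 and -0.41, which did not pass (adjusted p = 0.123 and 0.324 over probes).

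Of 12 other substrates 9 were tested, and 5 rose and 2 fell on days 1 to 3, with 2 each way on day 7. The shares over all genes were 25.6% higher and 29.2% lower on days 1 to 3, and 25.9% and 33.7% on day 7. Igfbp3, a binding protein of insulin-like growth factors, went from 6.69, 6.07 and 6.33 to 11.45, 11.24 and 10.75 on days 1 to 3 and 10.17, 10.12 and 9.96 on day 7. It rose by 4.78 ± 0.18 on days 1 to 3 (27.5-fold, limma adjusted p = 6.14e-06). Col4a1, a basement membrane collagen, rose by 0.93 ± 0.11 (limma adjusted p = 0.00042). Fn1, fibronectin, fell by 1.38 (SE 0.17, limma adjusted p = 0.000509), and App, the amyloid precursor protein, by 0.77 (SE 0.13, limma adjusted p = 0.00225). These 4 kept their direction on day 7.

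Of 20 transcription factors of squamous and hormone response 14 were tested. On days 1 to 3, 2 rose and 4 fell, and on day 7, 1 rose and 10 fell. The shares of all genes called higher and lower were 25.6% and 29.2% on days 1 to 3, and 25.9% and 33.7% on day 7. Trp63, the p63 factor of basal cells, fell by 1.81 on days 1 to 3 (SE 0.16, limma adjusted p = 9.59e-05) and fell by 1.81 on day 7 as well. Klf5 and Elf3, factors of epithelial differentiation, differed by 0.08 each on days 1 to 3 (limma adjusted p = 0.669 and 0.665) and fell by 1.53 and 1.65 on day 7 (SE 0.15 each, limma adjusted p = 0.000141 and 0.000102). The single factor called higher on day 7 was Esr1, the oestrogen receptor, by 0.71 ± 0.23 (limma adjusted p = 0.0289), detected on 0 hypoxic and 2 of 3 day 7 arrays. Its other kept probe gave the opposite direction, -0.79 (adjusted p = 0.011 over probes), and the mean over both was -0.04. The call was also lost in 8 of the 16 alternatives tried, so no direction is given for Esr1.

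**Figure D3:**
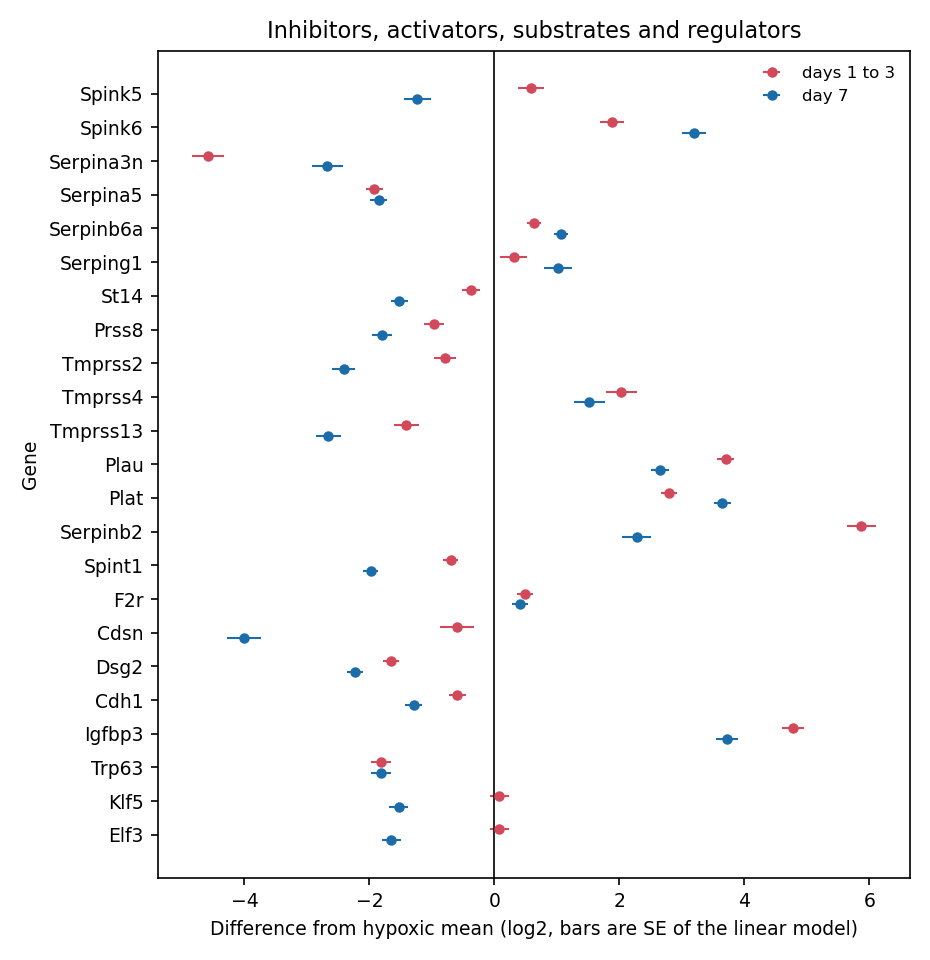
Difference from the hypoxic mean (log2, horizontal axis) on days 1 to 3 (red) and on day 7 (blue) for 23 inhibitors, activating proteases, regulators, receptors, substrates and transcription factors; bars are the SE of the linear model. Serpinb2, Igfbp3, Plau, Plat and Spink6 lie to the right on both, and Serpina3n, Serpina5, Dsg2 and Trp63 to the left on both. Spink5 changes side, as do Klf5 and Elf3, which lie at only 0.08 on days 1 to 3.

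The genes whose course over the 12 arrays was most like the mean of the 5 standardized kallikreins, by Pearson's r, were Lypd3 (0.991), Lor (0.989), Zdhhc13 (0.980), Aldh3a1 (0.978) and Ivl (0.978). Lypd3 is a surface protein of stratified epithelium, Lor and Ivl are loricrin and involucrin of the cornified envelope, Zdhhc13 is a palmitoyltransferase needed for normal hair and skin, and Aldh3a1 is an aldehyde dehydrogenase of cornea and other epithelia. They were picked for the likeness out of all genes, and the arrays share one time course, so r is a description. Lor read 5.08, 5.31 and 5.01 in hypoxic cells, undetected, 11.06, 9.28 and 8.20 on days 1 to 3, and 6.59, 6.52 and 6.62 on day 7. Lypd3 read 10.00, 10.19 and 10.14, then 14.06, 13.09 and 12.57, and 11.24, 11.08 and 11.45 on day 7. A second Ivl probe gave a day 7 difference of 0.07, in place of 0.99. Lor and Lypd3 stayed above their hypoxic readings at the end, as did 4 of the 5 kallikreins.

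Member by member, the closest gene was Lypd3 for Klk6 (r = 0.991) and Klk10 (0.990), Psca for Klk7 (0.985), Klk10 for Klk8 (0.987) and Klk7 for Klk14 (0.984). Psca, a surface antigen of prostate and other epithelia, differed by 6.34 ± 0.21 on days 1 to 3 and by 0.29 ± 0.21 on day 7. Dhrs1, a short-chain dehydrogenase, was second for Klk8 (0.984) and differed by 1.51 ± 0.12 and 0.86 ± 0.12.

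**Figure D4:**
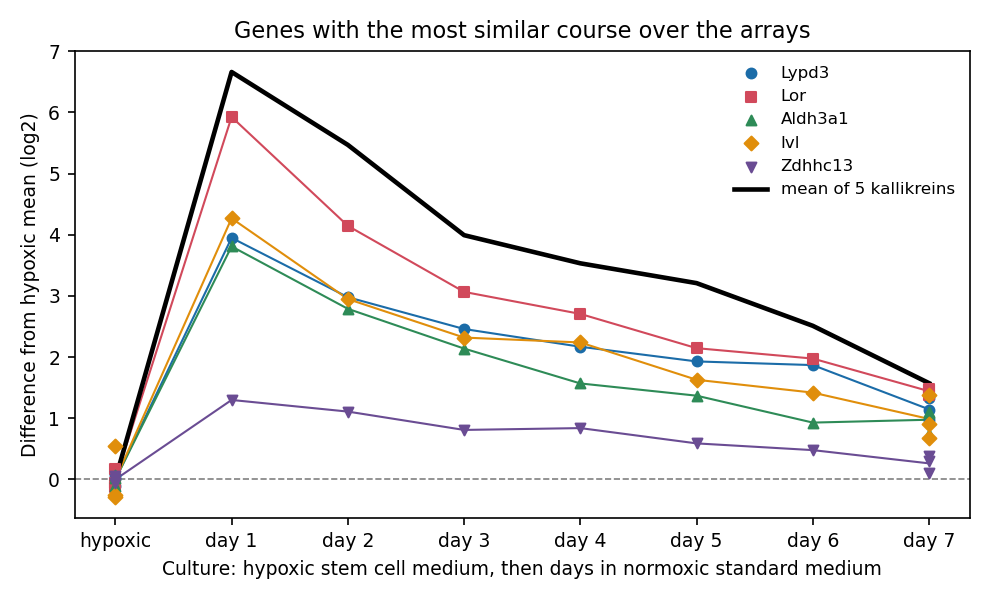
Difference from the hypoxic mean (log2, vertical axis) by culture for the 5 genes most like the kallikreins, with points for arrays and lines through group means, and the mean of the 5 kallikreins as a thick black line. All peak on day 1 and decline, with Zdhhc13 the flattest.

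Most markers of squamous differentiation rose early, as the kallikreins did. Of 18 listed 12 were tested, and 11 rose on days 1 to 3, 10 of them also when day 1 was left out, with 0 lower. On day 7, 6 rose and 3 fell. Among all genes 25.6% were called higher and 29.2% lower on days 1 to 3, and 25.9% and 33.7% on day 7. The summed signal of the squamous markers was 13.94 to 14.13 on the hypoxic arrays, 16.16 on day 1, 15.41 on day 2, 14.96 on day 3 and 13.89 to 13.98 on day 7. In hypoxic cells and on day 7 most of this sum was Krt17, the brightest marker, with means of 13.82 and 13.60. The sum therefore does not show where the dimmer markers stood on day 7. Among the markers counted as rising, Lor was kept only through the normoxic arrays. Krt16, a keratin of activated epidermis, rose by 5.73 ± 0.18 on days 1 to 3 and by 2.16 ± 0.18 on day 7 (limma adjusted p = 5.09e-06 and 8.59e-05), and Sprr1b, a cornified envelope precursor, by 5.13 ± 0.18 on days 1 to 3 (limma adjusted p = 5.54e-06) with 0.27 ± 0.18 on day 7 (limma adjusted p = 0.243). These 2 were named after their values were seen. Evpl, envoplakin of the envelope, also named so, rose by 1.04 ± 0.26 and then fell by 2.33 on day 7 (limma adjusted p = 0.0111 and 0.000238). Krt10, likewise named so, ran another course. It differed by 0.17 ± 0.12 on days 1 to 3 (limma adjusted p = 0.28) and rose by 1.62 ± 0.12 on day 7 (limma adjusted p = 4.84e-05).

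The summed signal of the epithelial markers was 15.72 to 15.77 in hypoxic cells, 16.37 on day 1 and 15.37 to 15.43 on day 7. Krt14, the brightest of them (means 14.37 in hypoxic cells and 14.15 on day 7), weighs most in this sum. Krt7 and Krt5, named after their values were seen, moved more, by 2.09 ± 0.11 on days 1 to 3 and by -1.55 ± 0.17 on day 7. Fibroblast markers ran another course, at 8.68 to 9.01 in hypoxic cells, 8.96 on day 1, when the kallikreins peaked, and 11.01 to 11.18 on day 7. Single markers rose early all the same: of the 6 tested, 3 rose and 1 fell on days 1 to 3, when 25.6% of all genes were called higher and 29.2% lower. These 3, named after their values were seen, were Col1a1 (at least 8.18-fold, limma adjusted p = 7.73e-06), Pdgfrb (at least 1.54-fold, limma adjusted p = 0.00153) and Col3a1 (1.23 ± 0.23, limma adjusted p = 0.0033), all undetected on the hypoxic arrays by the probe used. The 1 that fell was Pdgfra, also named so, by 1.42 (SE 0.13, limma adjusted p = 0.000117). Dcn, decorin, differed by 0.00 ± 0.17 (limma adjusted p = 0.995). Pdgfra had a mean of 7.83 in hypoxic cells and Dcn one of 10.40 on day 7, so these 2 weigh much in the summed signal. The similar sums in hypoxic cells and on day 1 therefore do not show that single markers stood still.

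The 2 tested macrophage markers summed to 5.73 to 6.27 in hypoxic cells and 6.52 on day 1. Mpeg1, a pore-forming protein of macrophages, was detected on 1 of 3 hypoxic arrays and on 3 of 3 arrays of days 1 to 3. It rose by 0.96 ± 0.27 on days 1 to 3 (limma adjusted p = 0.0193) and by 0.81 ± 0.27 on days 4 to 6 (limma adjusted p = 0.0368), and differed by 0.31 ± 0.27 on day 7 (limma adjusted p = 0.356). Lyz1, a lysozyme, differed by -0.02 ± 0.25 on days 1 to 3 (limma adjusted p = 0.946). Both were named after their values were seen. The part of squamous differentiation or of other cells in the kallikrein signals was not tested.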

How the data were processed

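RNA of 12 samples was read on 1-colour arrays, and groups, days and replicate numbers came from the sample titles. For each probe and array the deposited table held 1 signal with its detection p-value. The log2 signals deposited by the authors were, from the values, without background correction or normalization. No source used here names the scanner software. The deposited detection p-values carried no sample name per the file headers, and each column was used for the 1 signal column it orders exactly (the column beside it gave 16889 to 18170 inversions). The authors' processed table was not used, since its sample names conflict with those of the signal table.

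Signals were processed with neqc of limma 3.58.1 in R 4.3.3 (offset 16, quantile normalization). Of all probes, 18561 were detected below 0.05 on at least 3 arrays, and a gene was represented by its kept probe with the highest mean. Probe names came from the platform annotation: 34885 probes had 1 symbol, 18 several and 10378 none. A mean for each of 8 groups was fitted with lmFit and eBayes (4 residual degrees of freedom, 2-sided, Benjamini-Hochberg), and the fit was tested on simulated data first. The kallikreins and all gene lists were chosen with earlier results of these data known. Named network genes were, per list, up to 3 called genes in each direction with the largest day 7 difference, plus Klk5, Spink5, St14, Prss8, F2rl1 and Cdh1, and the genes of highest r. Same-numbered hypoxic and day 7 arrays did not deviate together (r = 0.029, -0.0037 and 0.059), and the main fit used no pairing. With 3 arrays in each group these values cannot show whether replicate numbers pair the arrays. Alternatives covered background, scaling, filter, probe choice, blocks, the inferred sets and left-out arrays. The number of arrays limits the precision of every value. Figures were drawn with matplotlib.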

Additional observations from a re-analysis of the deposited data

Results flagged for a closer look

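Spink5, the LEKTI inhibitor, lay above its hypoxic readings on days 1 to 3 of normoxic culture and below them on day 7. All 3 arrays of days 1 to 3 lay above every hypoxic array, with a mean difference of 0.59, and all 3 arrays of day 7 lay below, with a mean difference of -1.23. The difference between these 2 comparisons was not tested, and they share the hypoxic arrays.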

How the results depend on the processing

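Of 147 summary values recomputed under 23 alternatives, 135 kept their direction and size class. Within the inferred set of days 4 to 6, which leaves 1 hypoxic array, 2626 genes passed on day 7 (6184 over all arrays), 1967 on days 4 to 6 (5683), and 19 network genes on days 4 to 6 (38). The median kallikrein difference on day 7 was 1.45 and 1.24 without background correction (quantile and common median), and 0.71 with no filter, where Klk11 and Klk13 entered as dim genes, against 1.89. On days 1 to 3 it was 4.41 and 4.44 without background correction and 5.38 with the replicate block, against 5.03. Leaving out single days, chosen after seeing the data, gave 4.41 (without day 1) to 5.84 (without day 3) on days 1 to 3, and 2.67 (without day 4) to 3.16 (without day 6) on days 4 to 6 (2.76). With the replicate block, 6000, 4711 and 4722 genes passed on day 7, days 1 to 3 and days 4 to 6. In that fit 5 of 5 kallikreins were called higher on day 7, against 25.3% of all genes, and nothing is read from this count either. Reversed values were Esr1 on day 7, at -0.04 as a mean over kept probes, and Klk7 on day 7, at -0.02 within the set of days 1 to 3. The share of calls that were higher on day 7 was 43.5%, but 32.7% with a common median and no background correction, and 52.4% with a median over probes detected on all arrays. The Spink5 rise on days 1 to 3 lost its call without each hypoxic array in turn (adjusted p 0.0526 to 0.122), without day 1 (0.06) and without day 3 (0.152), and Klk5 lost its own with the replicate block (0.0595). For these losses the cause was not tested. Of 1853 values of named network genes, 62 lost and 31 gained a call. Signals near the control beads limit Klk14, Klk7 and Klk6 in hypoxic cells, where the offset and background set the fold.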
